A study of Mus musculus with 9 samples.

Results

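Retinoid genes and Cyp1b1 were followed in the uterus of mice with and without WNK1. The 9 genes were chosen by symbol for their steps in vitamin A handling, which are uptake (Stra6), carriers (Rbp4, Crabp2), synthesis of retinoic acid (Rdh10, Aldh1a1, Aldh1a2, Aldh1a3) and its breakdown (Cyp26a1), together with the hydroxylase Cyp1b1. Each of the 9 had 1 row among the 31274 entries of the table. Whole uteri were taken on pseudopregnancy day 4.5, when the uterus is receptive but holds no embryo, from 4 control mice (Wnk1fl/fl) and 5 mice lacking uterine WNK1 (Wnk1d/d), with 1 library for each mouse. All mice were C57BL/6 virgin females, 6 to 10 weeks old by the methods, mated to vasectomized males, and both genotypes carried loxP sites around exon 2 of both Wnk1 copies. Wnk1d/d mice carried in addition 1 allele of Cre driven by the progesterone receptor gene, which acts in receptor-bearing uterine cells and also in ovary and pituitary, but not in endothelial or immune cells.

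Vitamin A circulates as retinol bound to RBP4, and STRA6 is the membrane receptor that takes retinol from RBP4 into cells. RDH10 oxidizes retinol to retinal, the ALDH1A enzymes oxidize retinal to retinoic acid, CRABP2 carries retinoic acid to its nuclear receptors, and CYP26A1 hydroxylates retinoic acid for clearance. In the uterus retinoic acid synthesis is known from the stroma, and Cyp26a1 is known from the epithelium around implantation. CYP1B1 hydroxylates estradiol to catechol estrogens and can also oxidize retinol and retinal, and its gene is a known target of the aryl hydrocarbon receptor.

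Promoter sequence is shown for the members with the largest difference and the highest level, from RefSeq on GRCm38.p6, the build called mm10 by the authors. The table gave 11 windows for 6 of the 9 genes, each from 250 bases before to 50 bases after a start site. The windows were searched on both strands for a direct repeat of the retinoic acid receptor hexamers AGTTCA or AGGTCA, in any combination, with 5 bases between them and for GCGTG, the core letters of aryl hydrocarbon receptor sites. Capitals mark the match to the spaced repeat in Cyp26a1 and to GCGTG in Cyp1b1, both read on the other strand. The printed stretches are the first 240 bases of each window, chr19:37697558-37697797 on the plus strand and chr17:79715072-79715311 on the minus strand, written 5′ to 3′ along each gene.
Cyp26a1: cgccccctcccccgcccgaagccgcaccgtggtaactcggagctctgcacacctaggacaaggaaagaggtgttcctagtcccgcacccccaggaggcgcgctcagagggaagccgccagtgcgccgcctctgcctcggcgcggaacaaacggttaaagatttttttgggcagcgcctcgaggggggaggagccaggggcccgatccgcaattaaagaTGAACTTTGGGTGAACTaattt
Cyp1b1: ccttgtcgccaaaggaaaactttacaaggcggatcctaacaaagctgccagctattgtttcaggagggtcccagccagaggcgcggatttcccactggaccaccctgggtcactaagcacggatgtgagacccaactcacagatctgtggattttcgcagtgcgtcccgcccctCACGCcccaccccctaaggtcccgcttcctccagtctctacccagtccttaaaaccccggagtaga
The spaced repeat began 32 bases before the Cyp26a1 start site and was found in 1 of the 11 windows. Over all 32851 windows of the table it was found in 13 (0.0396%). GCGTG began 76 bases before the Cyp1b1 start site and was found in 3 of the 11 windows, against 32.4% of all windows. These matches describe letters only.

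Levels are given in FPKM, fragments scaled to exon length and library size, as the authors deposited them, so they can be set side by side between genes. Differences are on the log2(FPKM + 1) scale, which understates the change of genes with low FPKM, and were tested by limma across the 14728 genes with a mean above 1 FPKM in at least 1 genotype. A DEG had a Benjamini-Hochberg adjusted p under 0.05 and a ratio of genotype means of at least 1.5 either way. For single genes a two-sided permutation test, computed exactly over the 9 libraries, is given as well, and it cannot go below p = 0.016. The deposited FPKM carry no fragment counts, so depth is unknown. The median log2(FPKM + 1) of a library lay between 3.79 and 3.82. A single entry held 70.3% of the summed FPKM in Wnk1d/d replicate 4, and liver genes stood high in Wnk1fl/fl replicate 4. Wnk1 itself had 45.3 ± 1.62 FPKM (SD, n = 4) in Wnk1fl/fl and 31.2 ± 1.62 FPKM (SD, n = 5) in Wnk1d/d uteri, without overlap, counted over the whole gene and not over the deleted exon alone.

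Cyp1b1 and Stra6 fell and Aldh1a1 rose in Wnk1d/d uteri, while Aldh1a2, Rdh10, Rbp4 and Cyp26a1 did not pass the test. Among the 8 members in the fit, 3 were DEGs (1 rising, 2 falling), against a background of 10.3% of all genes, 5.09% in the higher and 5.18% in the lower direction. The libraries of the genotypes did not overlap for 4 of the 8 tested members, against 19.9% of all genes tested. Of the 4, Aldh1a1 and Crabp2 lay above in Wnk1d/d uteri, as did 9.27% of all genes, and Stra6 and Cyp1b1 lay below, as did 10.6%. The members were chosen with earlier results of these data known, so these shares describe them and are no test of the set. The median log2 difference of the 8 was -0.11, and that of all genes tested was 0.00299. Aldh1a3 stayed below 1 FPKM in all libraries and did not enter the test, and Crabp2 entered it only through its Wnk1d/d mean.

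**Figure D1:**
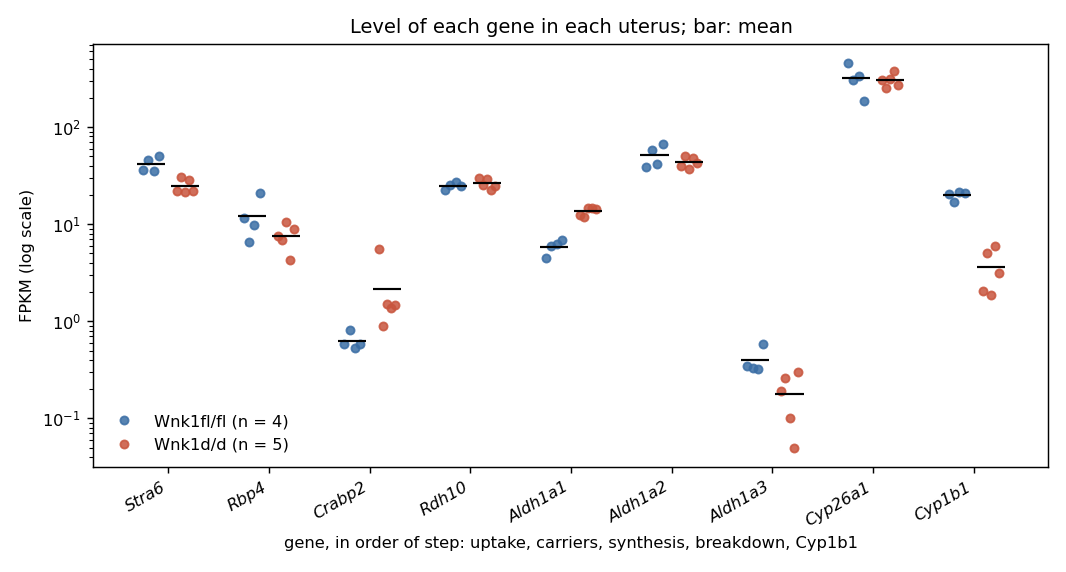
FPKM (log scale) of the 9 genes in each of 4 Wnk1fl/fl (blue) and 5 Wnk1d/d (red) uteri, with points for libraries and bars for means, in order of step. Cyp1b1 separates the genotypes most widely, and Cyp26a1 stands above the other genes in both.

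Cyp26a1, the retinoic acid hydroxylase, was the highest of the 9 genes in every library, with a lowest value of 184 FPKM. In Wnk1fl/fl uteri it was followed by Aldh1a2 and Stra6, whose ranges overlapped, and then by Rdh10. Cyp1b1, Rbp4 and Aldh1a1 came next, each overlapping its neighbour, and Crabp2 and Aldh1a3 were lowest and overlapped too. In Wnk1d/d uteri the order began with Cyp26a1 and Aldh1a2, and Rdh10 and Stra6 overlapped behind them. Aldh1a1 came next there, above Rbp4, Cyp1b1 and Crabp2, whereas in controls it was below Cyp1b1 and Rbp4. The neighbours Rbp4 and Cyp1b1, and Cyp1b1 and Crabp2, overlapped there.

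Uptake was represented by Stra6 (chromosome 9, 58063788 to 58153996 on mm10, plus strand, GENCODE release M21), the retinol receptor. Stra6 had 36.4, 45.9, 35.1 and 49.8 FPKM in Wnk1fl/fl replicates 1 to 4 and 22.2, 30.4, 21.2, 28.5 and 22.2 FPKM in Wnk1d/d replicates 1 to 5. Every Wnk1d/d library was below every control. The means were 41.8 ± 7.19 FPKM (SD, n = 4) and 24.9 ± 4.23 FPKM (SD, n = 5), a ratio of 0.596 (log2 difference -0.72, standard error 0.14, limma adjusted p = 0.0099, exact permutation p = 0.016). The annotated genes Ccdc33 on the opposite strand and Gm16131 on the same strand overlap the Stra6 span, and the counting is not stated to use strand. The log2 difference ranged from -0.80 to -0.64 when single libraries were left out in 9 further fits, and Stra6 was a DEG in all 9.

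The carriers were Rbp4 (chromosome 19, 38116629 to 38125281, minus strand), which carries retinol in plasma, and Crabp2 (chromosome 3, 87948666 to 87953376, plus strand), which carries retinoic acid inside cells. Rbp4 had 11.5, 6.61, 9.83 and 21.0 FPKM in Wnk1fl/fl replicates 1 to 4 and 7.49, 6.89, 10.6, 4.25 and 8.90 FPKM in Wnk1d/d replicates 1 to 5. The genotypes overlapped, with the highest value in Wnk1fl/fl replicate 4. The log2 difference was -0.56 (95% interval -1.24 to 0.13, limma adjusted p = 0.21, exact permutation p = 0.19). Rbp4 is strongly expressed in liver and in fat. In Wnk1fl/fl replicate 4 the liver genes other than Serpina1a and Serpina1c, a pair set aside after their values were seen, summed to 201 FPKM over 12 genes, against 14.5 to 18.8 FPKM in the other controls and 7.10 to 14.7 FPKM in Wnk1d/d libraries. With the pair included the 14 genes summed to 21.8 to 234 FPKM in Wnk1fl/fl and 23.8 to 67.0 FPKM in Wnk1d/d libraries, and albumin (Alb) was 77.7 FPKM in that library and at most 1.5 FPKM in the others. Without Wnk1fl/fl replicate 4 the Rbp4 difference was -0.28 (limma adjusted p = 0.49). Of 8 fat cell genes, Adipoq, Plin1, Cidec, Lep, Retn and Cfd were at or below 0.61 FPKM in every library, with Lep at 0 in all. Pck1 had 5.11 to 11.4 FPKM in Wnk1fl/fl and 5.31 to 8.2 FPKM in Wnk1d/d libraries, and Fabp4, a DEG, had 1.81 to 5.69 FPKM and 7.11 to 18.1 FPKM. The parts of liver tissue and of fat in the Rbp4 values were not tested.

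**Figure D2:**
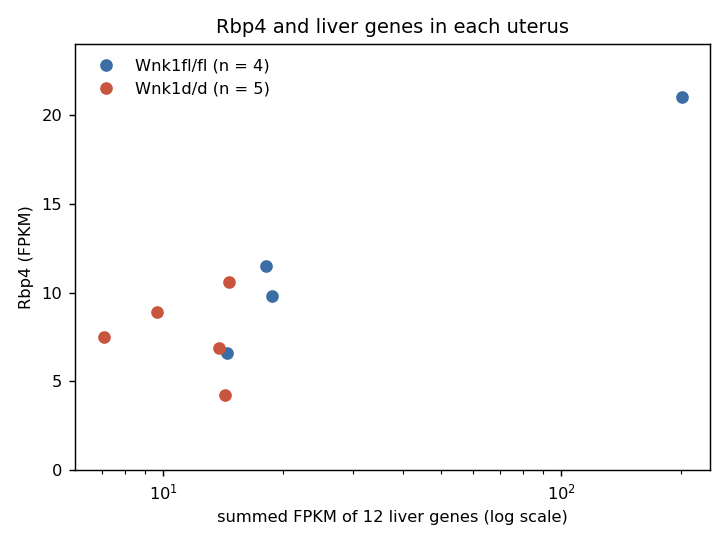
Rbp4 (FPKM) against the summed FPKM of 12 liver genes (log scale), with a point for each of 4 Wnk1fl/fl (blue) and 5 Wnk1d/d (red) uteri. Wnk1fl/fl replicate 4 lies apart at 201 FPKM of liver genes and 21.0 FPKM of Rbp4.

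Crabp2 had 0.590, 0.810, 0.530 and 0.590 FPKM in Wnk1fl/fl replicates 1 to 4 and 5.58, 0.900, 1.49, 1.38 and 1.47 FPKM in Wnk1d/d replicates 1 to 5. Every Wnk1d/d library was above every control, and Wnk1d/d replicate 1 stood far above the rest. Crabp2 did not pass the test (log2 difference 0.80, 95% interval 0.10 to 1.51, limma adjusted p = 0.093), while the exact permutation test gave p = 0.016. Without Wnk1d/d replicate 1 the difference was smaller, 0.50, and passed (limma adjusted p = 0.034). Wnk1d/d replicate 1 also had the highest summed levels of the mesothelium list (131 FPKM over 6 genes, against 62.1 to 95.7 FPKM in controls and 72.7 to 83.9 FPKM in the other Wnk1d/d libraries) and of the epithelium list (1764 FPKM over 9 genes). The part of these cells in the Crabp2 value was not tested.

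Synthesis begins with Rdh10 (chromosome 1, 16105774 to 16133734, plus strand), the main retinol dehydrogenase of embryonic tissues. Rdh10 had 22.4, 25.2, 27.0 and 24.8 FPKM in Wnk1fl/fl replicates 1 to 4 and 29.7, 25.6, 29.4, 22.5 and 24.9 FPKM in Wnk1d/d replicates 1 to 5. The genotypes overlapped, with Wnk1d/d replicates 1 and 3 above every control. The log2 difference was 0.08 with a 95% interval of -0.13 to 0.29 (limma adjusted p = 0.54, exact permutation p = 0.41), an interval that leaves out a 1.5-fold difference on this scale.

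Of the retinal dehydrogenases, Aldh1a1 rose. Aldh1a1 (chromosome 19, 20492715 to 20643465, plus strand) had 4.5, 5.91, 6.20 and 6.83 FPKM in Wnk1fl/fl replicates 1 to 4 and 12.4, 12, 14.6, 14.8 and 14.3 FPKM in Wnk1d/d replicates 1 to 5. The lowest Wnk1d/d library was well above the highest control. Means were 5.86 ± 0.985 FPKM (SD, n = 4) and 13.6 ± 1.30 FPKM (SD, n = 5), a ratio of 2.32 (log2 difference 1.10, standard error 0.11, limma adjusted p = 0.0014, exact permutation p = 0.016). Aldh1a1 was a DEG in all 21 alternatives of the fit. C730002L08Rik and Gm6684 lie on the opposite strand within its span, and the counting is not stated to use strand. Its close relative Aldh1a7 lies 49488 bases away, and 1.01% of the 75-base stretches of the annotated Aldh1a1 transcripts also occur in Aldh1a7. Aldh1a1 shared none with Aldh1a2 or Aldh1a3.

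Aldh1a2 (chromosome 9, 71215789 to 71296243, plus strand), the retinal dehydrogenase of embryonic mesoderm, was the most abundant of the 3. It had 39.1, 58.4, 42.1 and 67.3 FPKM in Wnk1fl/fl replicates 1 to 4 and 39.8, 50.5, 37.0, 48.3 and 42.3 FPKM in Wnk1d/d replicates 1 to 5. The genotypes overlapped, and controls spread more widely than Wnk1d/d libraries. The log2 difference was -0.22 (95% interval -0.59 to 0.15, limma adjusted p = 0.36, exact permutation p = 0.3), and it was -0.08 without Wnk1fl/fl replicate 4. Gm48124 overlaps it on the opposite strand.

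Aldh1a3 (chromosome 7, 66390890 to 66427517, minus strand), the third retinal dehydrogenase, had 0.350, 0.330, 0.320 and 0.580 FPKM in Wnk1fl/fl replicates 1 to 4 and 0.19, 0.26, 0.1, 0.05 and 0.300 FPKM in Wnk1d/d replicates 1 to 5. Every Wnk1d/d library was below every control, at levels where few fragments are behind a value. In the fit without a filter on FPKM it did not pass (log2 difference -0.24, limma adjusted p = 0.07), whereas p was 0.016 by exact permutation.

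The FPKM of the 3 enzymes summed to 43.9, 64.6, 48.7 and 74.7 in Wnk1fl/fl replicates 1 to 4 and to 52.4, 62.8, 51.7, 63.1 and 56.8 in Wnk1d/d replicates 1 to 5. The mean sums, 58.0 ± 14.2 FPKM (SD, n = 4) and 57.4 ± 5.47 FPKM (SD, n = 5), were close. The makeup of the sum was different. Aldh1a1 made up 9.14% to 12.7% of it in controls and 19.1% to 28.2% in Wnk1d/d libraries, with means of 10.3% ± 1.70 (SD, n = 4) and 23.9% ± 3.30 (SD, n = 5). Aldh1a2 made up 89.0% ± 1.71 (SD, n = 4) and 75.8% ± 3.25 (SD, n = 5). These shares use the same values as the single genes and were not tested again.

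**Figure D3:**
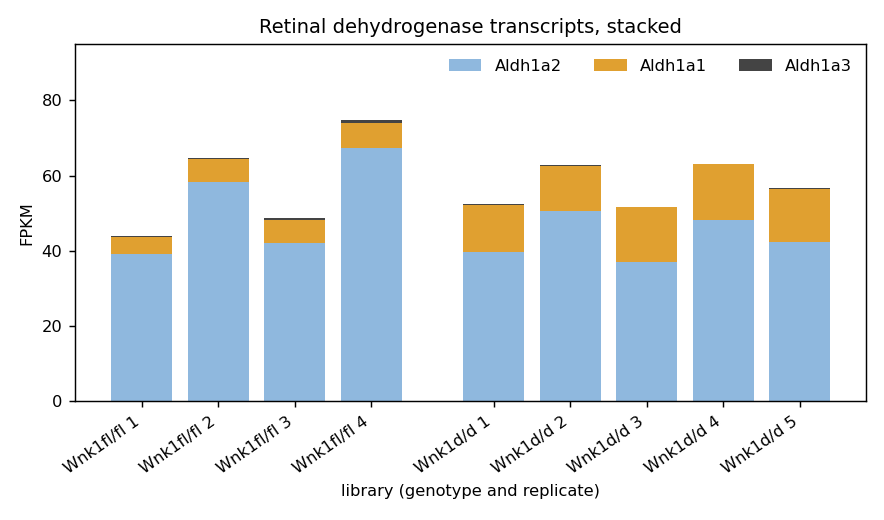
Stacked FPKM of Aldh1a2, Aldh1a1 and Aldh1a3 in each library. Bar heights overlap between genotypes, from 43.9 to 74.7 FPKM in Wnk1fl/fl and from 51.7 to 63.1 FPKM in Wnk1d/d, while the Aldh1a1 band is wider in each Wnk1d/d bar.

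Breakdown was represented by Cyp26a1 (chromosome 19, 37697798 to 37701536, plus strand), which lies 415093 bases from Rbp4 and whose promoter window held the spaced repeat of receptor hexamers shown above. Cyp26a1 had 455, 308, 334 and 184 FPKM in Wnk1fl/fl replicates 1 to 4 and 304, 255, 315, 378 and 274 FPKM in Wnk1d/d replicates 1 to 5. The Wnk1d/d range lay wholly inside that of the controls. The means were 320 ± 111 FPKM (SD, n = 4) and 305 ± 47.1 FPKM (SD, n = 5), and the log2 difference was -0.01 with a 95% interval of -0.53 to 0.50 (limma adjusted p = 0.98, exact permutation p = 0.98). Leaving out Wnk1fl/fl replicate 1, the highest control, gave 0.18, and leaving out Wnk1fl/fl replicate 4, the lowest, gave -0.25, neither past the threshold.

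Cyp1b1 (chromosome 17, 79701537 to 79715061, minus strand), the estradiol hydroxylase, showed the largest difference of the 9 and ranked 50 of the 14728 genes tested by size of log2 difference. Cyp1b1 had 20.5, 16.99, 21.3 and 21.0 FPKM in Wnk1fl/fl replicates 1 to 4 and 2.05, 5.10, 1.85, 5.96 and 3.11 FPKM in Wnk1d/d replicates 1 to 5. The highest Wnk1d/d library was far below the lowest control. The means were 19.9 ± 2.0 FPKM (SD, n = 4) and 3.61 ± 1.84 FPKM (SD, n = 5), 5.52-fold lower in Wnk1d/d uteri (log2 difference -2.27, standard error 0.26, limma adjusted p = 0.002, exact permutation p = 0.016). Cyp1b1 was a DEG in all 21 alternatives of the fit, with -2.44 to -2.12 in the 9 that left out 1 library.

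**Figure D4:**
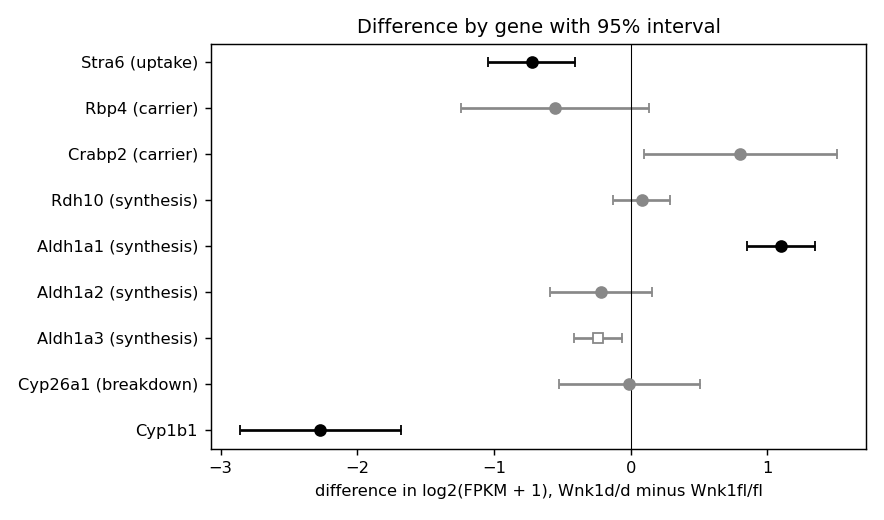
Difference in log2(FPKM + 1), Wnk1d/d minus Wnk1fl/fl, with 95% limma intervals, for each gene by step. Black marks DEGs, grey marks genes not past the test, and the open square marks Aldh1a3 from the fit without a filter. The intervals of Stra6, Aldh1a1 and Cyp1b1 lie apart from 0 and those of Rdh10, Aldh1a2, Rbp4 and Cyp26a1 include it. Those of Crabp2 and Aldh1a3 also lie apart from 0, although neither gene passed the test after adjustment.

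The genes whose profile over the 9 libraries was closest to Cyp1b1 were Tac2, Igfbp3, 3632451O06Rik, Rnase1 and Spink3. Closeness was the root-mean-square difference of log2(FPKM + 1) after each gene's mean was subtracted, and it was 0.427 for Tac2 and 0.467 to 0.469 for the other 4. All 5 had lower FPKM in Wnk1d/d uteri, which the choice by likeness to Cyp1b1 fixed, so that no test is given. Tac2, a tachykinin precursor, had 77.3 ± 7.74 FPKM (SD, n = 4) in Wnk1fl/fl and 23.1 ± 9.01 FPKM (SD, n = 5) in Wnk1d/d uteri. Igfbp3, which binds insulin-like growth factors, had 784 ± 456 FPKM (SD, n = 4) and 114 ± 38.2 FPKM (SD, n = 5).

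Markers of cell types moved with genotype too, and in whole uterus fewer cells of a type and less RNA per cell cannot be told apart. All 8 smooth muscle genes were DEGs with higher FPKM, with sums of 3333 to 7336 FPKM in Wnk1fl/fl and 8154 to 15140 FPKM in Wnk1d/d libraries. Of 8 endothelial genes, 6 were DEGs, all lower, with sums of 433 to 481 FPKM and 176 to 364 FPKM. Of 10 stromal genes, Pdgfra, Pdgfrb and Hoxa11 were DEGs with lower and Col1a1 and Lum with higher FPKM, with sums of 2003 to 2510 FPKM and 2370 to 2930 FPKM. Col1a1, Col3a1 and Dcn made up most of that sum, and the latter pair had higher means in Wnk1d/d uteri without being DEGs. Hoxa10 (231 and 158 FPKM), Hand2 (87.2 and 59.0 FPKM) and Nr2f2 (40.2 and 31.4 FPKM) were lower without overlap, short of the fold criterion. Of 6 gland genes, Prss28, Prss29 and Spink3 were DEGs, all lower, with sums of 6602 to 10406 FPKM and 831 to 2734 FPKM. These DEGs made up nearly all of that sum, and the other gland genes had higher means in Wnk1d/d uteri without being DEGs. Foxa2 had 5.83 and 6.78 FPKM, Cxcl15 1.46 and 2.64 FPKM, and Sox9 13.3 and 19.8 FPKM without overlap. The paper counted more glands in Wnk1d/d uteri and reported significantly higher Foxa2 mRNA there by qRT-PCR. Oviductin (Ovgp1) rose, and the 5 oviduct genes summed to 36.9 to 58.6 FPKM and 83.6 to 141 FPKM. Nearly all of that sum was Ovgp1 (11.3 and 52.6 FPKM on average) and Pax8 (34.8 and 51.9 FPKM, not a DEG). Foxj1, Dnah9 and Tekt1 were at or below 1.02 FPKM in every library and did not enter the test. Of these, Foxj1 had a higher mean in Wnk1d/d uteri, and Dnah9 and Tekt1 had lower means. Among the tested genes 1 of 9 epithelial, 1 of 6 mesothelial and 1 of 2 fat cell genes was a DEG, all higher (Krt7, Lrrn4, Fabp4). The summed levels of these 3 lists overlapped, at 1103 to 1599 FPKM and 1176 to 1764 FPKM for epithelium, 62.1 to 95.7 FPKM and 72.7 to 131 FPKM for mesothelium, and 7.82 to 16.1 FPKM and 15.1 to 23.6 FPKM for fat cells. Wt1 made up most of the mesothelium sum in controls and was lower in Wnk1d/d uteri without overlap (61.7 and 46.1 FPKM, not a DEG). The other mesothelium genes had higher means there, and Msln did not overlap (5.15 and 13.9 FPKM, not a DEG). No DEG was found by limma among 13 liver, 4 ovarian and 7 immune genes tested, with 2, 0 and 1 at an unadjusted p under 0.05 and 2, 0 and 0 by permutation. Over all 14728 genes tested, 5662 had an unadjusted limma p under 0.05. Ovarian and immune sums overlapped, at 17.4 to 23.6 FPKM and 15.3 to 48.5 FPKM for ovary and at 61.3 to 125 FPKM and 49.97 to 85.9 FPKM for immune cells. The part of these shifts in the levels of Stra6, Aldh1a1 and Cyp1b1 was not tested.

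Other genes of retinoid handling and of the pathways around CYP1B1 were taken from 7 lists of 80 genes, of which 76 were in the table and 56 entered the fit. DEGs among these 56 numbered 7 that rose and 4 that fell, beside a median log2 difference of 0.08. The share of DEGs among all genes was 10.3%, with 5.09% rising and 5.18% falling, and nothing particular to a list is read from its count. By list, DEGs were 2 higher and 1 lower of 11 for uptake and storage, 4 higher of 12 for conversion of retinol and retinal, 1 higher of 10 for genes induced by retinoic acid, 2 lower of 7 for the aryl hydrocarbon receptor axis and 2 lower of 11 for estrogen metabolism. Among the conversion genes that rose, Dhrs9 and Rdh1 entered the fit only through their Wnk1d/d means.

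**Figure D5:**
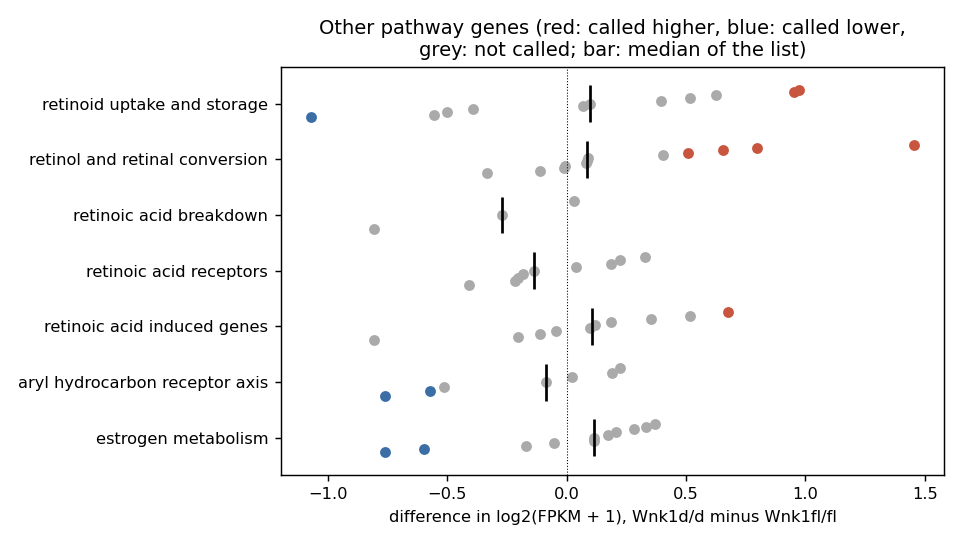
Difference in log2(FPKM + 1), Wnk1d/d minus Wnk1fl/fl, for each tested gene of 7 lists, with DEGs in red (higher) or blue (lower) and a bar at each list's median. The median of each list lies between -0.27 and 0.12, and Rdh12 lies farthest to the right at 1.46.

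In the uptake and storage list, Rbp7, a retinol carrier inside cells, had 8.12 ± 0.828 FPKM (SD, n = 4) in Wnk1fl/fl and 16.98 ± 4.22 FPKM (SD, n = 5) in Wnk1d/d uteri. Fabp5, which carries fatty acids and retinoic acid, had 3.87 ± 0.996 FPKM (SD, n = 4) and 8.59 ± 2.16 FPKM (SD, n = 5). Both rose without overlap. Scarb1, a lipoprotein receptor that also takes up carotenoids, fell from 101 ± 1.85 FPKM (SD, n = 4) to 49.6 ± 16.4 FPKM (SD, n = 5). The limma adjusted p of the 3 was 0.0066 for Rbp7, 0.01 for Fabp5 and 0.0094 for Scarb1. Lrat, which stores retinol as esters, had 10.7 and 16.8 FPKM and did not pass (limma adjusted p = 0.32), with 35.5 FPKM in Wnk1d/d replicate 1.

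Among genes of retinol and retinal conversion, Rdh12, a retinal reductase known from photoreceptors, had 10.7, 8.98, 9.39 and 14.96 FPKM in Wnk1fl/fl replicates 1 to 4 and 50.4, 27.9, 44.0, 25.6 and 18.9 FPKM in Wnk1d/d replicates 1 to 5. The genotypes did not overlap (log2 difference 1.46, standard error 0.27, limma adjusted p = 0.0087). Dhrs9, a retinol dehydrogenase of epithelia, rose from 0.350 ± 0.141 FPKM (SD, n = 4) to 1.35 ± 0.208 FPKM (SD, n = 5), with a limma adjusted p = 0.004. Rdh1 and Rdh9, which oxidize retinol and belong to a cluster of close relatives, rose from 0.518 to 1.42 FPKM and from 1.5 to 2.58 FPKM. Their limma adjusted p was 0.028 and 0.03, and it was no longer under 0.05 in 6 of the 9 fits that left out 1 library for Rdh1 and in 7 for Rdh9. Dhrs3, which reduces retinal back to retinol, had 43.3 and 39.9 FPKM (limma adjusted p = 0.44). Dhrs9, Rdh1 and Rdh9 were above 1 FPKM on average in Wnk1d/d uteri, and Dhrs9 and Rdh1 entered the test only through that mean.

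Breakdown beyond Cyp26a1 held no DEG among 3 genes tested with limma. Over all 14728 genes tested, 5662 had an unadjusted p under 0.05 by limma. Here 1 of the 3 did, and 1 had a permutation p under 0.05. That gene was Cyp26b1, the hydroxylase known from mesenchyme, with 6.44, 0.990, 2.38 and 2.22 FPKM in Wnk1fl/fl replicates 1 to 4 and 0.820, 2.04, 0.880, 0.920 and 0.760 FPKM in Wnk1d/d replicates 1 to 5. The genotypes overlapped (limma adjusted p = 0.11). The log2 difference of -0.81 became -0.45 without Wnk1fl/fl replicate 1, the highest control (limma adjusted p = 0.21), and -1.09 without Wnk1fl/fl replicate 2, the lowest, where it was a DEG (limma adjusted p = 0.043).

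The receptor list held no DEG among 9 genes tested with limma, although 3 of them had an adjusted p under 0.05, 5 an unadjusted p under 0.05 and 5 a permutation p under 0.05. Of all genes tested, 22.1% had such an adjusted p when size was left aside, and 5662 of 14728 had such an unadjusted p. The permutation test was not run over all genes. Rara had 15.8 ± 1.16 FPKM (SD, n = 4) in Wnk1fl/fl and 20.1 ± 1.79 FPKM (SD, n = 5) in Wnk1d/d uteri (ratio 1.27, limma adjusted p = 0.019). Rarg moved the other way, from 39.9 ± 3.19 FPKM (SD, n = 4) to 29.8 ± 1.58 FPKM (SD, n = 5), a ratio of 0.746 (limma adjusted p = 0.0066). Neither overlapped between genotypes. Rarb, itself a retinoic acid target, had 1.45 and 1.12 FPKM (limma adjusted p = 0.28), and the partner receptor Rxra had 17.5 and 15.9 FPKM (limma adjusted p = 0.1).

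Of the genes known to rise with retinoic acid, Tgm2, a transglutaminase, was the only DEG of 10, a share like the 10.3% of all genes, with 303 ± 8.21 FPKM (SD, n = 4) in Wnk1fl/fl and 486 ± 39.1 FPKM (SD, n = 5) in Wnk1d/d uteri (log2 difference 0.68, limma adjusted p = 0.0021). Its ratio of 1.60 was under 1.5 with quantile normalization, where the log2 difference was 0.47. The median of this list was 0.11.

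In the aryl hydrocarbon receptor list, the receptor gene Ahr had 9.48 ± 0.523 FPKM (SD, n = 4) in Wnk1fl/fl and 6.52 ± 1.91 FPKM (SD, n = 5) in Wnk1d/d uteri, with a ratio of 0.688 that is short of the fold criterion (limma adjusted p = 0.047). Wnk1d/d replicate 2 overlapped the controls at 9.64 FPKM, and without it Ahr was a DEG (log2 difference -0.65, limma adjusted p = 0.0045). Cyp1a1, a classical target and relative of Cyp1b1, had 2.66, 1.98, 3.26 and 2.75 FPKM in Wnk1fl/fl replicates 1 to 4 and 1.48, 1.89, 1.08, 0.860 and 0.630 FPKM in Wnk1d/d replicates 1 to 5. It fell without overlap (log2 difference -0.76, standard error 0.18, limma adjusted p = 0.018). Ugt1a6a, a glucuronosyltransferase that shares exons with other genes of its locus, fell from 11.6 to 7.44 FPKM (limma adjusted p = 0.02), and was not a DEG without Wnk1fl/fl replicate 4 or without Wnk1d/d replicate 4 (log2 difference -0.49 in both). The receptor's repressor Ahrr was below 1 FPKM in all libraries, with means of 0.753 and 0.398 FPKM and overlapping genotypes. It had a log2 difference of -0.33 in the fit without a filter (limma adjusted p = 0.049).

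Of the estrogen metabolism list, Cyp1a1 and Sult1a1 were the DEGs of 11 tested. Sult1a1, a sulfotransferase of phenols and estrogens, fell from 63.0 ± 7.49 FPKM (SD, n = 4) to 41.5 ± 6.57 FPKM (SD, n = 5), without overlap (limma adjusted p = 0.011). Its ratio of 0.659 was close to the fold criterion, and it was not a DEG in 5 of the 9 fits that left out 1 library. Hsd17b2, which inactivates estradiol, lay below the filter at 0.590 and 0.260 FPKM on average and did not pass in the fit without it (limma adjusted p = 0.57), and Sult1e1 was listed at 0 in all libraries.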

How the data were processed

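TruSeq libraries of uterine RNA were sequenced with 75-nt paired-end reads. The authors aligned reads to mm10 with TopHat (TopHat2 2.0.4 in the submitters' processing notes) and deposited FPKM values, computed with Cufflinks (2.0.2 there), in 1 table of 9 libraries without pooling. The gene annotation is not given in the sources used here. FPKM already adjusts for gene length and library size, and depth cannot be recovered from it.

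After a pseudocount of 1 was added, log2 values of the genotypes were fitted without pairing in limma 3.58.1 (R 4.3.3, variance trend on), and p-values were adjusted by Benjamini-Hochberg over 14728 genes. Permutation tests used SciPy 1.17.1 under Python 3.11.15. Nothing says how mice were assigned to preparation or sequencing runs, so no such batch was examined.

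The members and lists were chosen with earlier results of these data known. Besides the members, the genes named are the DEGs of each list, at most 4, a fixed set of step-matched genes, the 5 genes closest to Cyp1b1, and Wnk1. Some genes of the fixed set are not reported here. Marker genes were named after their values were seen, as were genes outside this rule. Of the listed genes 4 had no match in the table by current or older symbol. Alternatives were other pseudocounts (0.1, 0.01), filters (none, 5 FPKM), scalings, limma settings and fold criteria, a replicate block, and leaving out each library. Leaving out replicate 4 of both genotypes was added after seeing the data. Replicate numbers come from the sample titles and mark different mice.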

Additional observations from a re-analysis of the deposited data

Results flagged for a closer look

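In 60 groups of 4 or 5 libraries (the members and the other genes reported by rule, in each genotype), 5 held a library farther from the rest than Dixon's 95% value allows, where chance gives about 1 in 20. Crabp2 was 5.58 FPKM in Wnk1d/d replicate 1, against 0.900 to 1.49 FPKM in the other Wnk1d/d libraries, and Lrat was 35.5 FPKM in the same library, against 10.04 to 15.8 FPKM. Aldh1a3 was 0.580 FPKM in Wnk1fl/fl replicate 4, against 0.320 to 0.350 FPKM in the other controls. Cyp26b1 was 2.04 FPKM in Wnk1d/d replicate 2, against 0.760 to 0.920 FPKM, and Ahrr was 0.730 FPKM there, against 0.260 to 0.390 FPKM.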

How the results depend on the processing

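The DEG calls of Aldh1a1 and Cyp1b1 held in all 21 alternatives and that of Stra6 in 20, lost only with a fold criterion of 2, which left 1 member lower. Crabp2 became a further DEG, making 2 members higher, with a pseudocount of 0.01 and without Wnk1d/d replicate 1, so that 1 to 2 members were higher and 2 lower when 1 library was left out. Exact permutation gave p under 0.05 for 5 members as reported, with a pseudocount of 0.1 and when 1 library was left out, the settings in which it was run. These are the 5 members without overlap between genotypes. Neither setting can bring their p to 0.05, so their permutation result adds no support. Cyp26a1 changed sign without passing the threshold, with 0.024 in the replicate block and -0.25 to 0.18 when 1 library was left out. Listed pathway genes gave 11 DEGs, 8 to 12 when 1 library was left out, 7 with a filter at 5 FPKM (fewer genes tested), 7 with a fold criterion of 2, 6 without replicate 4 of both genotypes, and 0 of 56 by limma with the replicate block. In that block fit 16 of the 56 had an unadjusted p under 0.05, as did 3880 of all 14728 genes. Over all genes, 1513 DEGs became 3249 without a fold criterion, 550 with a criterion of 2, 806 without replicate 4 of both genotypes and 218 with the replicate block. The cause of these changes was otherwise not tested. The replicate block fits extra terms, and Wnk1d/d replicate 5, which has no same-numbered control, does not inform its genotype difference. For Cyp1b1 the log2 difference was -2.25 both with the block and without that replicate. Same-numbered libraries of the genotypes come from different mice and did not deviate together (correlations across genes of -0.27 to 0.02), so the numbers were not taken as pairs, and the block changed no call among the members. Depth is unknown, which limits what can be said of Aldh1a3 and Crabp2.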

Other observations

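Some genes of retinal supply lay under the filter of 1 FPKM and were looked at after their values were seen, so their p-values only describe them. Other genes of the conversion list under the filter went both ways. Rdh7 (0.415 and 0.054 FPKM), Adh4 (0.155 and 0.04 FPKM) and Aldh8a1 (0.148 and 0.038 FPKM) had lower means in Wnk1d/d uteri. Each overlapped between genotypes and was highest in Wnk1fl/fl replicate 4. Adh7 and Rdh16 had higher means in Wnk1d/d uteri. Bcmo1 (now Bco1), which cleaves beta-carotene to retinal, had 0.340, 0.110, 0.110 and 0.0800 FPKM in Wnk1fl/fl replicates 1 to 4 and 0.640, 0.660, 1.30, 0.630 and 0.730 FPKM in Wnk1d/d replicates 1 to 5. The genotypes did not overlap, and in the fit without a filter it was higher (log2 difference 0.62, limma adjusted p = 0.013). Aldh1a7, the close relative of Aldh1a1, had 0.120 to 0.290 FPKM in Wnk1fl/fl and 0.490 to 0.790 FPKM in Wnk1d/d libraries, also without overlap (log2 difference 0.47, limma adjusted p = 0.005 in that fit). A small share of the Aldh1a7 transcript is identical to Aldh1a1 over 75 bases (2.51% of stretches), and how the authors' counting divided such reads is not given in the sources used here.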
